A study of Mus musculus with 6 samples.

Results

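The collagen genes of the mouse heart were examined in animals with a reduced level of the vesicular acetylcholine transporter (VAChT), the protein that loads acetylcholine into synaptic vesicles. Of 35556 probe sets on the array, 46 carried a single gene symbol of the collagen form (Col, a number, a, a number), and they covered 44 genes. By structure, 11 probe sets belong to fibrillar collagens, 6 to the basement membrane type IV chains, 9 to FACIT collagens (fibril-associated collagens with interrupted triple helices) and 20 to other collagens. Col6a5 and Col6a6 are represented by 2 probe sets each. Members were found by symbol alone, without use of their values.

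The arrays came from VAChT KD mice, in which the transporter gene Slc18a3 is knocked down throughout the body (homozygous, according to the study's methods), and from WT mice. All animals were untreated males of 3 months. Each group holds 3 arrays, and each array is a pool of 2 RNA samples, so that every p-value measures the spread between pools. The labels give heart as tissue and C57BL/6 as strain, whereas the study's methods give ventricles and a mixed C57BL6/j background. All values are log2 signals, and a difference is VAChT KD minus WT on the log2 scale.

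Collagens are triple-helical proteins of the extracellular matrix. In the heart, fibroblasts make most of the type I and type III collagen that forms the fibres around the myocytes, and endothelial and other cells lay down type IV networks in basement membranes. Excess fibrillar collagen is the hallmark of myocardial fibrosis, and several other family members are known mainly from cartilage, skin or epithelia.

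The tissue label was checked with 10 cardiomyocyte markers, which averaged 13.29, 14.09 and 14.08 on the arrays VAChT KD 1 to 3 and 14.03, 14.05 and 13.997 on WT 1 to 3, far above the signal of olfactory receptor probe sets (95th percentile 6.51). Array VAChT KD 1 read lower than all others at the brightest probe sets. The label check went against 1 array of each genotype. Ogdhl, an oxoglutarate dehydrogenase-like protein, read 7.06, 10.17 and 7.09 on VAChT KD 1 to 3, against 9.60, 7.21 and 10.33 on WT 1 to 3, so both arrays numbered 2 stood opposite to the others of their label. Slc18a3 itself read 7.24, 6.77 and 7.58 in VAChT KD hearts and 7.31, 7.42 and 7.11 in WT hearts, which overlap, and whether its probes cover the sequence changed in the mutant is not given in the sources used here. The labels of these 2 arrays are in doubt, so every difference below that uses them may mix the genotypes. VAChT KD and WT hearts below mean those so labelled, no array was moved between groups, and the main counts are given again without both arrays numbered 2.

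No collagen passed an adjusted p of 0.05 in limma. The smallest adjusted p among the 46 probe sets was 0.409, and 1 probe set of all those on the array passed (0.00281%). Most collagen probe sets read somewhat lower in VAChT KD hearts. In whole tissue, fewer cells of a type and less RNA per cell cannot be told apart. The difference was below 0 for 41 of 46 (89.1%, against 54.2% of all probe sets), with a median of -0.17 against -0.02 over all probe sets. Of the 1023 olfactory receptor probe sets, 83.9% were below 0, with a median of -0.11. Among these receptors 10.6% were lower at an unadjusted p of 0.05, and for 18.5% every VAChT KD array lay below every WT array. At an unadjusted p of 0.05, 11 collagen probe sets (23.9%) were lower in VAChT KD hearts and 0 were higher, where 7.81% of all probe sets were lower and 3.93% higher. For 22 collagens (47.8%) every VAChT KD array lay below every WT array, against 12.9% of all probe sets, and for 0 did the reverse hold (6.25%). This count of 22 needs both labels numbered 2 to be right, because an exchange of these arrays would make the groups of every such probe set overlap. None of them combined that p with a 1.3-fold difference, which 1.67% of all probe sets did in the lower direction and 2.12% in the higher one. Without both arrays numbered 2 the median was -0.22 with 43 of 46 below 0, while 4 were lower at that p and 0 higher (6.16% and 4.46% of all probe sets). The 4 were Col9a1, Col9a3, Col11a1 and Col4a6. All VAChT KD arrays then lay below all WT arrays for 32 of 46 and above them for 0, against 27.9% and 18.6% of all probe sets. Single arrays also moved the count of 11, to 1 without VAChT KD 3, 2 without WT 1 and 7 without VAChT KD 1. The size of the shift differed between ways of scaling the arrays. After a further quantile normalization the collagen median was -0.16, 40 of 46 were below 0 and 9 passed an unadjusted p of 0.05. The share of all probe sets past that p was not counted after this normalization or with single arrays left out, so those counts lack a background. With each array centred on its own median, the collagen median was -0.10, 34 were below 0 and 2 were lower at that p (3.66% of all probe sets were lower and 6.72% higher).

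**Figure D1:**
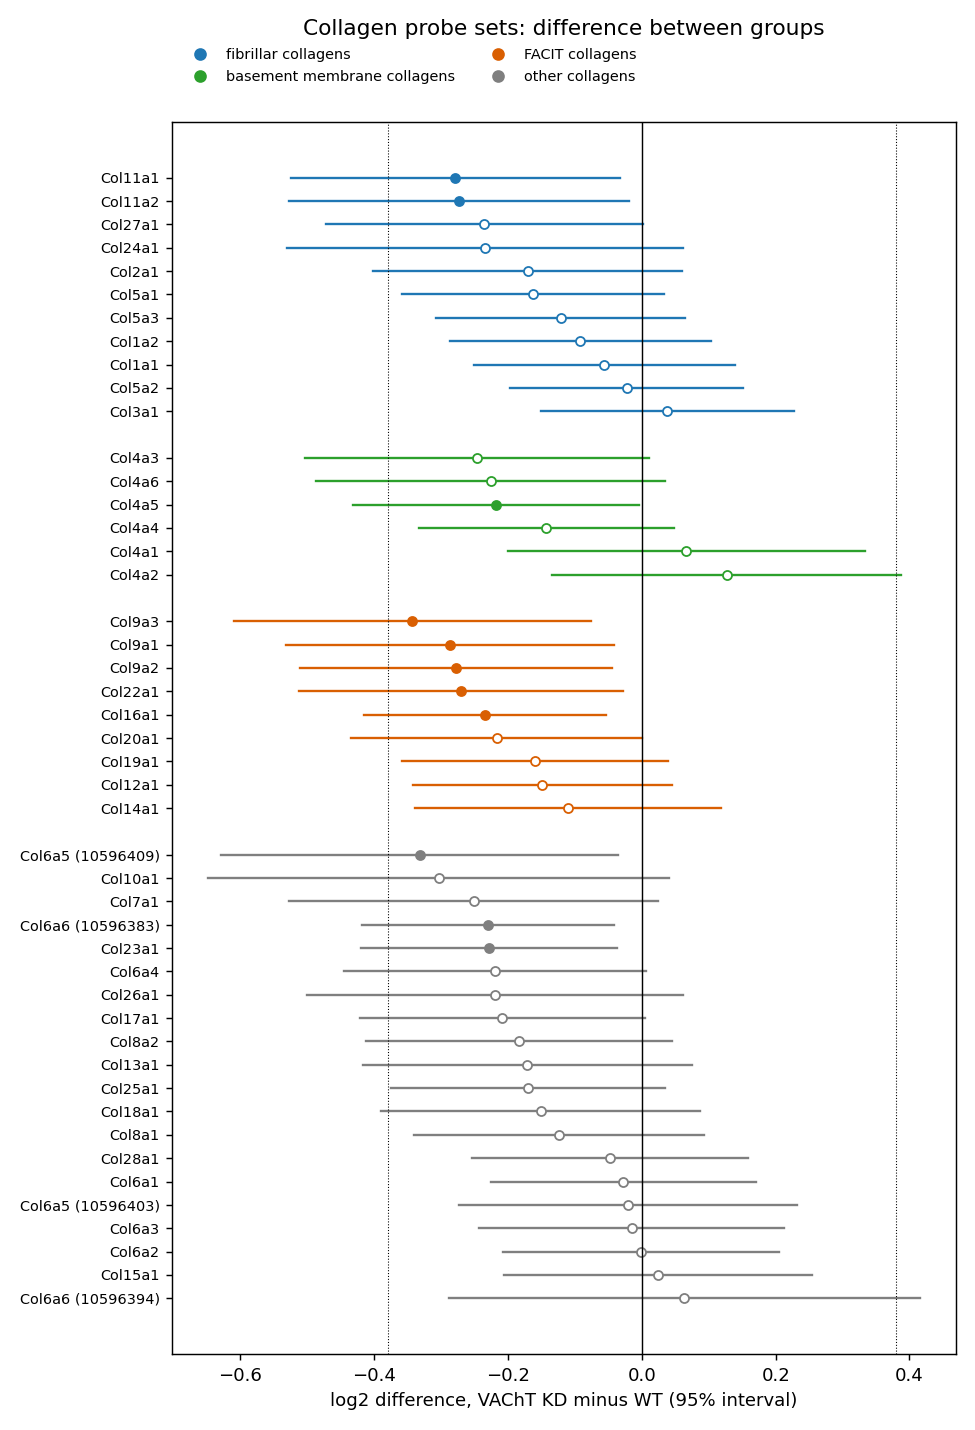
Log2 difference, VAChT KD minus WT, of the 46 collagen probe sets by family, with 95% limma intervals (3 arrays per group). Filled points mark an unadjusted p under 0.05 and open points the rest, dotted lines mark a 1.3-fold difference, and 41 points lie left of 0.

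The fibrillar collagens of heart fibres differed little. Col1a1, which encodes the main chain of type I collagen, read 8.67, 8.86 and 8.81 in VAChT KD hearts and 8.83, 8.79 and 8.88 in WT hearts. The groups overlapped, with a difference of -0.06 (standard error 0.08, 95% interval -0.25 to 0.14, adjusted p = 0.779 in limma). Col1a2, the partner chain, read 8.82, 8.96 and 8.97 in VAChT KD hearts, against 8.95, 8.99 and 9.09 in WT hearts, a difference of -0.09 (interval -0.29 to 0.10, adjusted p = 0.638 in limma). Col3a1, the chain of type III collagen, was the single fibrillar member above 0. It read 8.70, 8.85 and 8.82 in VAChT KD hearts and 8.75, 8.70 and 8.80 in WT hearts, a difference of 0.04 (interval -0.15 to 0.23, adjusted p = 0.849 in limma), which turned to -0.02 without both arrays numbered 2. With all arrays as labelled, the interval of these 3 genes lay within 1.3-fold, which is 0.38 on the log2 scale, as for 52.9% of all probe sets. Without both arrays numbered 2, Col1a1 differed by -0.12 (unadjusted p = 0.377 in limma) and Col1a2 by -0.12 (unadjusted p = 0.385 in limma).

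Type V collagen, which sets the diameter of type I fibrils, gave a mixed picture. Col5a1 read 7.80, 7.83 and 7.76 in VAChT KD hearts and 8.04, 7.84 and 7.99 in WT hearts, without overlap. Its difference of -0.16 (interval -0.36 to 0.03) had an adjusted p of 0.468 in limma, and the nearest arrays of the groups were the 2 arrays numbered 2. Col5a2 read 7.11, 7.07 and 7.07 in VAChT KD hearts and 7.10, 7.05 and 7.17 in WT hearts, a difference of -0.02 (interval -0.20 to 0.15).

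The type XI chains, known mainly from cartilage, were the 2 fibrillar members lower at an unadjusted p of 0.05. Col11a1, a chain of type XI collagen, read 6.84, 6.98 and 6.90 in VAChT KD hearts and 7.38, 7.09 and 7.09 in WT hearts, with no overlap and WT 1 highest. The difference was -0.28 (interval -0.52 to -0.03, unadjusted p = 0.031, adjusted p = 0.409 in limma). Col11a2, another type XI chain, read 7.79, 7.72 and 7.56 in VAChT KD hearts, against 8.14, 7.88 and 7.86 in WT hearts, a difference of -0.27 (interval -0.53 to -0.02, adjusted p = 0.412 in limma). Of the rest, Col27a1, Col24a1, Col2a1 (the cartilage type II chain) and Col5a3 differed by -0.24, -0.23, -0.17 and -0.12, and none reached an unadjusted p of 0.05. In all, 10 of 11 fibrillar probe sets were below 0 (median -0.16), 2 were lower at the unadjusted threshold (7.81% of all probe sets) and 5 did not overlap (12.9% of all probe sets).

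The type IV collagens divided by chain. Col4a1 and Col4a2 form the network found in nearly all basement membranes, including those of cardiac capillaries and myocytes. Col4a1 read 8.78, 8.94 and 8.90 in VAChT KD hearts and 8.58, 8.88 and 8.96 in WT hearts, a difference of 0.07 (interval -0.20 to 0.33, adjusted p = 0.811 in limma). Col4a2 read 8.77, 8.98 and 8.79 in VAChT KD hearts, against 8.54, 8.76 and 8.87 in WT hearts, a difference of 0.13 (interval -0.13 to 0.39, adjusted p = 0.629 in limma). Both overlapped between the groups and both were lowest on WT 1.

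The 4 other type IV chains, known mainly from kidney and some epithelial and smooth muscle basement membranes, were all below 0 and all highest on WT 1. Col4a5 read 7.45, 7.45 and 7.28 in VAChT KD hearts and 7.71, 7.51 and 7.61 in WT hearts, without overlap, and its difference was -0.22 (interval -0.43 to -0.0045, unadjusted p = 0.046, adjusted p = 0.421 in limma). Col4a3 differed by -0.25, Col4a6 by -0.23 and Col4a4 by -0.14. Without both arrays numbered 2 the difference of Col4a6 was -0.35, at an unadjusted p of 0.046.

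The FACIT collagens, which decorate the surface of fibrils, were the family with the highest share of members below 0. All 9 were below 0 (median -0.23, 54.2% of all probe sets below 0), 8 did not overlap between groups (12.9% of all) and 5 were lower at an unadjusted p of 0.05 (7.81% of all), although Col12a1 and Col19a1 averaged below the olfactory receptor limit. The 3 chains of type IX collagen, which coats type II fibrils in cartilage, were among those 5. Col9a3 read 7.89, 7.82 and 7.72 in VAChT KD hearts and 8.36, 7.98 and 8.11 in WT hearts, and its difference of -0.34 (interval -0.61 to -0.08, unadjusted p = 0.019, adjusted p = 0.409 in limma) was the largest in size among the collagens. Col9a1 read 6.65, 6.86 and 6.56 in VAChT KD hearts, against 7.09, 6.89 and 6.95 in WT hearts, a difference of -0.29 (unadjusted p = 0.028). Col9a2 read 7.66, 7.78 and 7.64 in VAChT KD hearts and 8.13, 7.94 and 7.84 in WT hearts, a difference of -0.28 (unadjusted p = 0.026). All 3 were highest on WT 1 and lowest on VAChT KD 3. Without both arrays numbered 2, Col9a1 (-0.42) and Col9a3 (-0.43) kept an unadjusted p under 0.05 and Col9a2 (-0.34) did not.

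Col16a1, which associates with small fibrils in several tissues, read 7.56, 7.57 and 7.48 in VAChT KD hearts and 7.83, 7.71 and 7.78 in WT hearts. Its difference of -0.23 had the smallest unadjusted p of all collagens (0.018). Col22a1, known from tissue junctions such as that of muscle and tendon, read 7.21, 7.08 and 7.05 in VAChT KD hearts, against 7.57, 7.29 and 7.29 in WT hearts, a difference of -0.27 (unadjusted p = 0.034). The FACIT members that sit on type I fibrils in heart and other soft tissue differed less. Col14a1 read 7.97, 7.90 and 7.94 in VAChT KD hearts and 8.01, 7.91 and 8.22 in WT hearts, which overlap, with a difference of -0.11 (interval -0.34 to 0.12). Col12a1 read 6.02, 6.12 and 6.08 in VAChT KD hearts, against 6.14, 6.21 and 6.32 in WT hearts, a difference of -0.15 (interval -0.34 to 0.04) at a signal under the olfactory receptor limit. Col20a1 and Col19a1 differed by -0.22 and -0.16.

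Type VI collagen, which forms beaded microfilaments between basement membranes and fibres, showed close values for its 3 main chains. Col6a1 read 8.63, 8.78 and 8.71 in VAChT KD hearts and 8.67, 8.70 and 8.83 in WT hearts, a difference of -0.03 (interval -0.23 to 0.17). Col6a2 read 8.80, 8.95 and 8.94 in VAChT KD hearts, against 8.88, 8.81 and 9.01 in WT hearts, a difference of 0.00 (interval -0.21 to 0.21). Col6a3 read 7.79, 7.997 and 7.99 in VAChT KD hearts and 7.85, 7.90 and 8.06 in WT hearts, a difference of -0.02 (interval -0.24 to 0.21). All 3 overlapped, and all 3 were lowest on VAChT KD 1 and highest on WT 3.

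The other type VI chains gave different values between probe sets of one gene. The brighter probe set of Col6a6 (10596383) read 8.47, 8.42 and 8.46 in VAChT KD hearts and 8.78, 8.68 and 8.60 in WT hearts, a difference of -0.23 (unadjusted p = 0.023, adjusted p = 0.409 in limma), whereas the other (10596394) differed by 0.06. The brighter probe set of Col6a5 (10596409) read 6.97, 6.97 and 6.62 in VAChT KD hearts, against 7.34, 7.14 and 7.06 in WT hearts, a difference of -0.33 (unadjusted p = 0.033), and the other (10596403), at a signal below the olfactory receptor limit, differed by -0.02. Col6a4 differed by -0.22.

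Among the remaining structural classes, Col15a1 and Col18a1 encode the collagens of the basement membrane zone whose C-terminal fragments act on blood vessels. Col15a1 read 8.51, 8.64 and 8.67 in VAChT KD hearts and 8.49, 8.51 and 8.75 in WT hearts, a difference of 0.02 (interval -0.21 to 0.25). Col18a1 read 7.45, 7.52 and 7.56 in VAChT KD hearts, against 7.85, 7.60 and 7.54 in WT hearts, a difference of -0.15 (interval -0.39 to 0.09). Col8a1, a short-chain collagen of vessel walls, read 8.25, 8.45 and 8.42 in VAChT KD hearts and 8.40, 8.502 and 8.59 in WT hearts, a difference of -0.12 (interval -0.34 to 0.09), and its partner Col8a2 differed by -0.18. None of these reached an unadjusted p of 0.05.

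The transmembrane collagen Col23a1 read 7.79, 7.79 and 7.66 in VAChT KD hearts and 8.04, 7.98 and 7.90 in WT hearts, without overlap and with a difference of -0.23 (unadjusted p = 0.026). The other transmembrane collagens Col17a1, Col13a1 and Col25a1 differed by -0.21, -0.17 and -0.17. Col10a1, the collagen of hypertrophic cartilage, differed by -0.30 (interval -0.65 to 0.04) at a signal below the olfactory receptor limit. Col7a1, which forms the anchoring fibrils of skin, Col26a1 and Col28a1 differed by -0.25, -0.22 and -0.05. Together with the type VI chains these made 20 probe sets, of which 18 were below 0 (median -0.17) and 3 were lower at the unadjusted threshold (7.81% of all probe sets).

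The members were also described in 2 sets, the 15 collagens known from heart tissue (Col1a1, Col1a2, Col3a1, Col4a1, Col4a2, Col5a1, Col5a2, Col6a1, Col6a2, Col6a3, Col8a1, Col12a1, Col14a1, Col15a1 and Col18a1) and the 31 remaining probe sets, and the difference between the sets was not tested. Of the 15, 11 were below 0 with a median of -0.03, none was lower at an unadjusted p of 0.05, 2 did not overlap (Col5a1 and Col12a1), and for 13 the interval lay within 1.3-fold (52.9% of all probe sets). This median was 0.04, with 6 below 0, when arrays were centred on their medians. Of the 31, 30 were below 0 with a median of -0.23, 11 were lower at that p (7.81% of all probe sets), 20 did not overlap (12.9% of all) and for 6 the interval lay within 1.3-fold. The sets overlapped in their values, with Col5a1 (-0.16), Col18a1 (-0.15) and Col12a1 (-0.15) among the 15, and Col5a3 (-0.12) and Col28a1 (-0.05) among the 31. The median of the 31 was -0.16, with 28 below 0, after centring. The 2 sets were drawn up with earlier results of these data known.

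**Figure D2:**
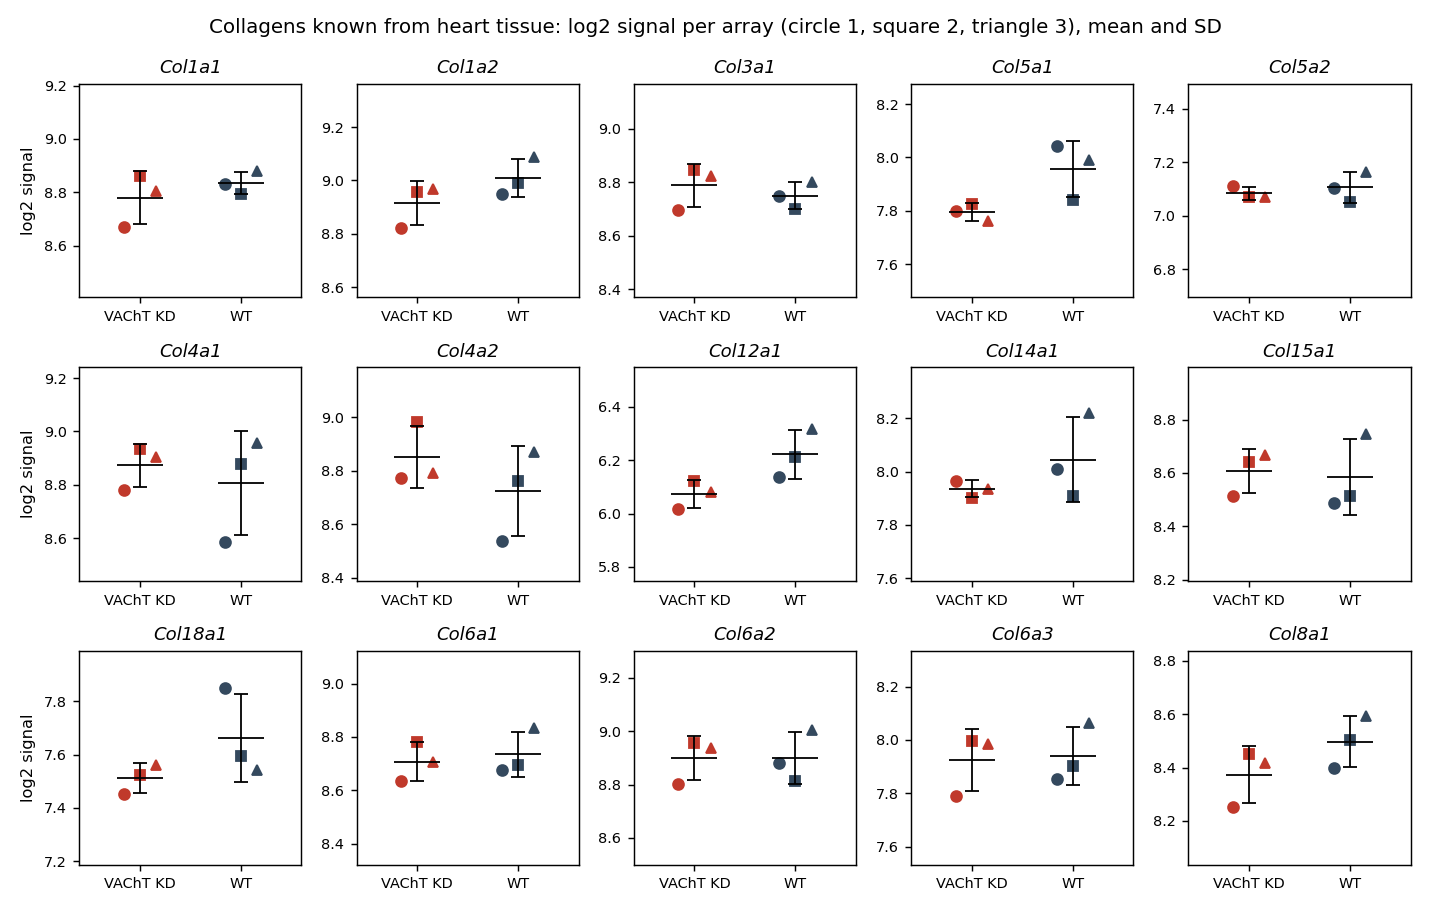
Log2 signal of the 15 collagens known from heart tissue on each VAChT KD and WT array (points), with the mean and SD of each group (lines and bars) and each gene on its own axis. In all panels but those of Col5a1 and Col12a1 the VAChT KD and WT points overlap, as for Col1a1 at 8.67 to 8.86 on VAChT KD arrays and 8.79 to 8.88 on WT arrays.

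The arrays that carried the extremes differed between these groups. The 15 heart collagens averaged 8.14, 8.26 and 8.23 on VAChT KD 1 to 3 and 8.21, 8.21 and 8.34 on WT 1 to 3, and 11 of them were highest on WT 3 and 9 were lowest on VAChT KD 1. The 31 remaining probe sets averaged 7.16, 7.20 and 7.08 on VAChT KD 1 to 3 and 7.49, 7.29 and 7.29 on WT 1 to 3, and 29 of them were highest on WT 1 and 23 lowest on VAChT KD 3. The 1023 olfactory receptor probe sets, whose genes are not known for expression in heart muscle, averaged 4.79, 4.81 and 4.74 on VAChT KD 1 to 3 and 4.99, 4.86 and 4.85 on WT 1 to 3. Of these, 54.0% were highest on WT 1 and 43.1% lowest on VAChT KD 3, against 31.2% and 24.4% of all probe sets, and their median difference was -0.11. The part of this array pattern in the collagen differences was not tested.

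**Figure D3:**
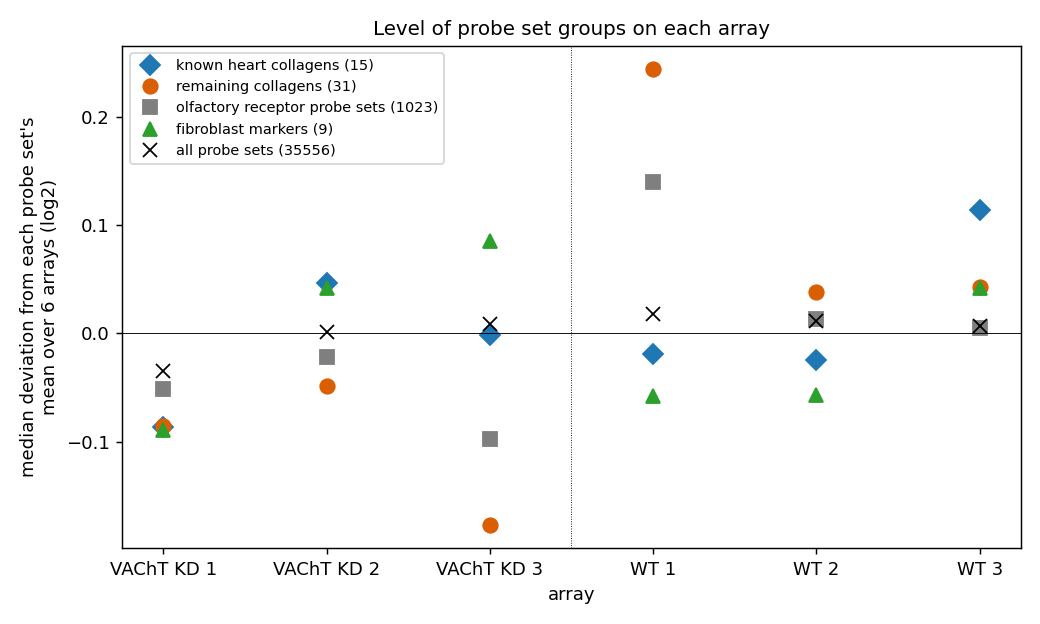
Median deviation of each group of probe sets from its probe sets' mean over the 6 arrays, on the log2 scale, by array. The remaining collagens and the olfactory receptor probe sets are both highest on WT 1 and lowest on VAChT KD 3, while the heart collagens are highest on WT 3.

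The differences were also set against signal level. Among probe sets with a mean signal above 8.5, 5 of 9 collagens were below 0 with a median of 0.00, and the median of all probe sets of that signal was 0.05 with 31.1% below 0. Between 7.5 and 8, all 15 collagens were below 0 with a median of -0.22 and 6 were lower at an unadjusted p of 0.05, where the median of all probe sets of that signal was 0.00, 49.5% were below 0 and 7.55% were lower at that p. Between 7 and 7.5, all 7 collagens were below 0 with a median of -0.22, against a median of -0.06 and 62.4% of all probe sets. Between the olfactory receptor limit and 7, the 9 collagens had a median of -0.22 and all probe sets one of -0.11. Of these 9, 8 were below 0 and 1 was lower at that p, against 71.0% and 15.5% of all probe sets there. Between 8 and 8.5, the 2 collagens were below 0 and 0 were lower at that p, against 36.1% and 4.01% of all probe sets there. Over all collagens, 42 of 46 had a mean above that limit.

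**Figure D4:**
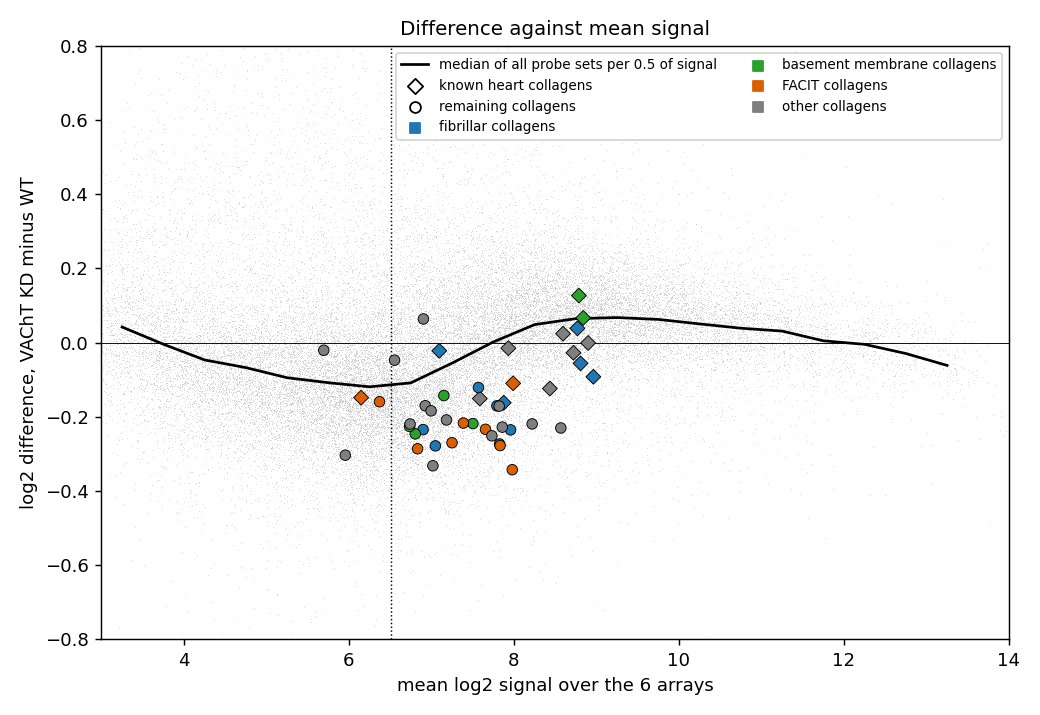
Log2 difference, VAChT KD minus WT, against the mean log2 signal over the 6 arrays for each collagen probe set, with the median over all probe sets of each signal band. Collagens of 7.5 to 8 lie below 0 (15 of 15), and those above 8.5 scatter around it (5 of 9 below).

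Promoter sequence is shown for 2 heart collagens near 0 and 2 cartilage collagens that were lower at an unadjusted p of 0.05. They were chosen by these differences, so no link between letters and difference can be read from them. Windows were taken from RefSeq on GRCm38.p6, in which all 44 genes were matched, on 15 chromosomes and none on chromosome 14 that carries Slc18a3, and 35 had a promoter window. The 120 bases before the listed start are given 5′ to 3′ on the plus strand, with capitals for the motif CCAAT (read as ATTGG on the other strand), the motif TATAAA (read as TTTATA) and the motif GGGCGG (read as CCGCCC). They come from chr6:4505498-4505617 for Col1a2, chr1:45311418-45311537 for Col3a1, chr4:121039446-121039565 for Col9a2 and chr3:114030420-114030539 for Col11a1.
Col1a2: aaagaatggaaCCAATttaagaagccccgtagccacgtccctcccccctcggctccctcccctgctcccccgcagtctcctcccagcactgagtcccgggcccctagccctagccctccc
Col3a1: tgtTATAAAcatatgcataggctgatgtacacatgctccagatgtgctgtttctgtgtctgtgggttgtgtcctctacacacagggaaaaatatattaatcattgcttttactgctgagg
Col9a2: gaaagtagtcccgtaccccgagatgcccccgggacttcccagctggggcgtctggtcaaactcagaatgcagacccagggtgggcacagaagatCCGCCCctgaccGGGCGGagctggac
Col11a1: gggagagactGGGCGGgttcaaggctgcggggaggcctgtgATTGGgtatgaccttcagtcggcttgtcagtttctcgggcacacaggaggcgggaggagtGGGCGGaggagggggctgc
The Col1a2 window holds CCAAT starting 109 bases before the start and the Col3a1 window TATAAA 117 bases before it. The Col9a2 window holds GGGCGG on either strand, 26 and 14 bases before the start. The Col11a1 window holds it 110 and 19 bases before the start and CCAAT on the reverse strand 79 bases before it.

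Across 250 bases before the start, searched on both strands, CCAAT was present for 4 of 11 heart collagens with a window (36.4%), 9 of 24 remaining collagens (37.5%) and 37.5% of all genes. TATAAA was present for 1 of 11 (9.09%), 4 of 24 (16.7%) and 14.3% of all genes. GGGCGG was present for 6 of 11 (54.5%), 15 of 24 (62.5%) and 35.4% of all genes. A match is a description of letters only.

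The genes whose values followed Col1a1 most closely over the 6 arrays, among 14434 probe sets with 1 symbol above the olfactory receptor limit, were Eef2kmt (r = 0.996), Adarb1 (0.993), Rrad (0.984), Mrtfb (0.982) and Wnk2 (0.979). Among collagens the nearest were Col1a2 (0.86), Col8a1 (0.84), Col6a1 (0.82), Col6a3 (0.82) and Col6a2 (0.81). Col1a1 and all of these genes were lowest on VAChT KD 1, such as Rrad at 10.04 there and 10.63 to 10.97 on the other arrays. The part of that array in the r values was not tested. The r values are descriptions over 6 arrays that share their normalization.

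Of 26 genes that process and cross-link collagen, 7 were below and 19 above 0 (median 0.03), and 0 passed an unadjusted p of 0.05 in either direction. This split was not stable, with 15 below and 11 above 0 under array weights (median -0.01) and medians of -0.02 without VAChT KD 3 and -0.01 without WT 1. Of all probe sets 54.2% were below 0, and of those above a signal of 8.5 31.1% were. The smallest p values belonged to the lysyl oxidase family members Loxl4 (-0.17) and Loxl1 (0.20), which cross-link fibres, and to P4ha3 (-0.17), a prolyl hydroxylase subunit. Of 20 collagen receptors and turnover genes, 10 were below and 10 above 0 (median -0.01, and 0.06 after centring), and 3 were lower at that p (7.81% of all probe sets). They were the matrix metalloproteinases Mmp3 (-0.27) and Mmp9 (-0.22), whose mean signals lay below the olfactory receptor limit, and Timp3 (-0.38), an inhibitor of such enzymes. Timp3 read 10.85, 10.83 and 10.98 in VAChT KD hearts and 11.38, 11.48 and 10.96 in WT hearts, so that the groups overlapped through WT 3, and it passed 1.3-fold as well, with an adjusted p of 0.409 in limma. Without both arrays numbered 2 the difference of Timp3 was -0.25 (unadjusted p = 0.195), past neither threshold, and of the 3 genes Mmp3 alone stayed past that p.

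Genes of TGF-beta signalling and fibrosis showed no member at an unadjusted p of 0.05 among 16 measured, with 5 below and 11 above 0 (median 0.04). Of all probe sets 54.2% were below 0, and of those above a signal of 8.5 31.1% were. After centring, 3 were below and 13 above 0 (median 0.11). Postn was then higher at that p (unadjusted p = 0.045 in limma), as were 6.72% of all probe sets. Postn, which encodes the matrix protein periostin, read 9.76, 9.77 and 9.74 in VAChT KD hearts and 9.27, 9.60 and 9.67 in WT hearts, without overlap, a difference of 0.24 (unadjusted p = 0.071). Of all probe sets 6.25% lay higher without overlap. Without both arrays numbered 2 the difference of Postn was 0.28 (unadjusted p = 0.140 in limma). Acta2, a smooth muscle actin, differed by 0.27 and the fibronectin gene Fn1 by 0.20. The 5 members below 0 were Ltbp2 (-0.15), Ccn2 (-0.12), Smad7 (-0.09), Cthrc1 (-0.04) and Tgfbr2 (-0.03). Of 14 laminin and other basement membrane partners, 6 were below and 8 above 0 (median 0.01, and -0.03 after a further quantile normalization). Lamc3, a laminin gamma chain, was lower at an unadjusted p of 0.05 (7.81% of all probe sets) with a difference of -0.23, but not without both arrays numbered 2. The laminin alpha chains Lama5 and Lama1 differed by -0.22 and -0.19. Without both arrays numbered 2, Lama5 differed by -0.38 (unadjusted p = 0.019 in limma) and was the 1 partner lower at that p (6.16% of all probe sets).

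Markers of the cells that make or border collagen were set beside these results. Of the 9 fibroblast markers, 4 were below and 5 above 0 with a median difference of 0.00, and 0 passed an unadjusted p of 0.05. They averaged 10.002, 10.15 and 10.21 on VAChT KD 1 to 3 and 10.03, 10.08 and 10.16 on WT 1 to 3. After centring all 9 were above 0, with a median of 0.07 against 0.05 over all probe sets. With each array left out, the median of these markers ran from -0.04 to 0.06. The smallest p values among them were those of Lum (0.21), Tcf21 (0.15) and Pi16 (0.08), and those below 0 were Gsn (-0.06), Fbln1 (-0.05), Pdgfra (-0.03) and Dcn (-0.01). The 8 endothelial markers had a median of 0.02 (-0.01 after a further quantile normalization) with none at that p, with differences of -0.09 for Vwf, 0.10 for Kdr and -0.08 for Egfl7. Of 7 smooth muscle and pericyte markers (median 0.04), Tagln was higher at that p (0.22, 3.93% of all probe sets), while Myh11 (0.13) and Cspg4 (-0.09) were not past it. After centring, the endothelial median was 0.08 and the smooth muscle and pericyte median 0.10.

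Of the 10 markers of cartilage, tendon and valve, 6 had a mean above the olfactory receptor limit, 7 were below 0 (median -0.07) and 0 passed an unadjusted p of 0.05. The defining cartilage genes Acan and Matn1 averaged below that limit and differed by -0.22 and -0.25, and the tendon gene Tnmd, also below it, by -0.14. The 3 members above 0 were Prg4 (0.21), Hapln1 (0.04) and Fmod (0.04). After centring, 5 of the 10 were below 0 and the median was 0.00. The 10 cardiomyocyte markers had a median of -0.27 with none at that p, and Tnnt2 (-0.31), Atp2a2 (-0.28) and Myh6 (-0.26) each read lowest on VAChT KD 1. Without that array the cardiomyocyte median was 0.06 and the collagen median -0.19, and after a further quantile normalization they were 0.02 and -0.16. The 5 epicardial markers had a median of 0.00, with Krt19 at -0.12, Upk1b at 0.04 and Wt1 at 0.02. Of 4 adipocyte markers (median -0.10), 2 had a mean above the olfactory receptor limit. Plin1 was lower at that p (-0.25, 7.81% of all probe sets), and Lep and Adipoq differed by -0.14 and -0.06. Of 7 fast skeletal muscle markers (median -0.16), 3 had a mean above that limit. Actn3 (-0.24) and Tnni2 (-0.27) were lower at that p (7.81% of all probe sets) and Tnnt3 differed by -0.22. Of these 7, 6 were highest on WT 1 and 5 lowest on VAChT KD 3, against 31.2% and 24.4% of all probe sets. Without both arrays numbered 2, Tagln stayed past that p and Plin1, Actn3 and Tnni2 did not. The part of any of these cell types in the collagen values was not tested.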

How the data were processed

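The authors hybridised heart RNA to Affymetrix Mouse Gene ST 1.0 arrays, scanned them with Command Console 1.1 and summarised probes by RMA in Partek Genomics Suite 6.5. The deposited values are therefore log2 signals from RMA, a method that can compress differences near background. As deposited the arrays were not fully equal, with medians of 6.88, 6.89 and 6.84 on VAChT KD 1 to 3 and 6.98, 6.93 and 6.91 on WT 1 to 3, and a highest signal of 13.70 on VAChT KD 1 against 14.71 to 14.90 on the others. The genome build was not given in the sources used here. Gene names came from the annotation of the platform (21789 with 1 symbol, 1621 with several, which were not named, and 12146 unlisted).

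The log2 values were used as deposited and without a filter. Groups follow the genotype stated for each array. Arrays were not exchanged between groups on the strength of measured values. A linear model of VAChT KD minus WT with no covariate was fitted to all probe sets in limma 3.58.1 (lmFit, eBayes; R 4.3.3) and adjusted by Benjamini-Hochberg over 35556. The procedure was tested on simulated data. With 3 arrays per group the smallest two-sided p of an exact permutation test is 0.1, and the number of arrays limits the precision. Signal was judged against 1023 olfactory receptor probe sets, whose 95th percentile of mean signal was 6.51. A gene of the other lists is given by the probe set with the highest mean. Promoters were read with Python 3.11.15.

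Named in full were 15 collagens known from heart, every collagen at an unadjusted p of 0.05 or 1.3-fold, the 2 widest differences in each direction of each family, the 3 smallest p values of each other list, and Slc18a3 and Ogdhl. For likeness, the 5 probe sets of highest r with Col1a1 were named. Members, lists and tests were chosen with earlier results of these data known, including the doubt about the arrays numbered 2. Alternatives were a further quantile normalization, centring, a filter on dim probe sets, other eBayes settings, array weights, a replicate block, the methods' ANOVA, 1 probe set per gene, each array left out in turn and both arrays numbered 2 left out.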

Additional observations from a re-analysis of the deposited data

How the results depend on the processing

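Of 684 differences of the 46 collagen probe sets under 15 alternatives, 650 kept their direction and side of the adjusted threshold, 34 turned sign and 0 came to pass it (lowest adjusted p in limma or its alternatives 0.274). The count of collagens at an unadjusted p of 0.05, 11 in the report, was 2 after centring, 5 by the methods' ANOVA, 4 without both arrays numbered 2 and 18 with 1 probe set per gene, and 1 (without VAChT KD 3) to 13 (without WT 3) with each array left out in turn, including 2 without WT 1 and 7 without VAChT KD 1. The count that also reached 1.3-fold was 2 without both arrays numbered 2 and 0 to 2 with each array left out. Shares of all probe sets at an unadjusted p of 0.05 alone were counted only for the main fit, centring and without both arrays numbered 2. The other counts of collagens at that p therefore lack a background. The median of -0.17 was -0.10 after centring and -0.21 to -0.13 with each array left out. Over all probe sets, 1348 passed an unadjusted p of 0.05 with 1.3-fold (594 lower and 754 higher), against 578 above the olfactory receptor limit, 587 by the methods' ANOVA, 2800 without both arrays numbered 2, 290 with 1 probe set per gene and 841 (without WT 1) to 2173 (without WT 2) with each array left out, and 2100 without WT 3. Centring turned this split to 268 lower and 1125 higher, and the further quantile normalization to 409 and 777. Both filters also changed the probe sets that eBayes drew its common spread from. The cause of the other changes was not tested.

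Arrays of the same number deviated together at correlations of 0.06, -0.12 and 0.13, and those of unlike number at -0.21 to 0.18. With 3 arrays per group and 2 labels in doubt, these values cannot decide whether the numbers pair the samples. With the replicate block, 12 collagens passed an unadjusted p of 0.05, the median was -0.17, and 1489 probe sets passed with 1.3-fold.

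Signs turned as follows. After quantile normalization Col3a1 was -0.02, Col5a2 0.03, Col15a1 -0.03, Col28a1 0.03 and Col6a5 (10596403) 0.05. After centring Col5a2 was 0.04, Col6a3 0.05, Col6a2 0.07, Col6a1 0.04, Col1a1 0.01, Col28a1 0.02 and Col6a5 (10596403) 0.05. With array weights Col6a2 was 0.00, Col28a1 0.00 and Col6a6 (10596394) -0.01. Without both arrays numbered 2, Col3a1 was -0.02 and Col15a1 -0.03. With each array left out in turn, Col5a2 ran from -0.05 to 0.01, Col6a3 from -0.06 to 0.05, Col6a2 from -0.04 to 0.05, Col6a1 from -0.06 to 0.02, Col15a1 from -0.02 to 0.11, Col28a1 from -0.08 to 0.00, Col4a1 from -0.04 to 0.14, Col6a6 (10596394) from -0.05 to 0.18 and Col6a5 (10596403) from -0.13 to 0.06.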
